A study of Mus musculus with 20 samples.

Results

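The chemokines studied here were *Cxcl9*, *Cxcl10*, *Cxcl11*, *Cxcl1*, *Cxcl12*, *Ccl2*, *Ccl4*, *Ccl5*, *Ccl6* and *Ccl9*, followed in livers of mice that carry an *IMP2-2* transgene (tg) and of wildtype (wt) mice. These 10 genes, of 18194 genes on the array, were taken by name, and every probe set annotated to 1 of them alone was read, which gave 18 probe sets of 45101. *Cxcl9*, *Cxcl10* and *Cxcl11* form the interferon-induced group of 3, and the remaining 7 genes form the other group. All mice were untreated, were 5 weeks old and had the mixed strain background C57Bl6J/DBA2. The tg mice carried p62, also named IMP2-2, a splice variant of the mRNA binding protein encoded by *Igf2bp2*, and the series title describes the transgene as specific to the liver. Wt mice lacked it, and no further allele or agent is named for either genotype.

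RNA of 10 tg and 10 wt livers was read on Affymetrix arrays, and all values below are deposited log2 signals after RMA. *Igf2bp2* has no probe set of its own here, so the transgene itself was not checked in the arrays. Array medians lay between 4.46 and 4.55, and the median of all probe set means was 4.53, which serves below as a mark for low signal. The 8 hepatocyte markers, among them *Alb* and *Ttr*, had mean levels of 13.19 to 13.49 in tg and 13.24 to 13.48 in wt arrays. The wt arrays wt_1407_2 and wt_1420_6, and likewise wt_1407_5 and wt_1420_7, differed by an SD of only 0.168 and 0.172 over all probe sets, where other wt pairs began at 0.228. Each of these near-identical pairs was averaged to 1 profile for means, ranges and exact tests, which leaves 8 wt profiles. The limma fit kept all 20 arrays, as did the comparisons within the numbers that the array names carry. Tg_1386_9 and wt_1386_4 were closer still at 0.155, the smallest SD of all pairs, and were kept under their labels. Whether these arrays come from different livers, and whether their genotype labels are right, was not checked. Conversely, 3 tg livers (tg_1420_4, tg_1423_2-8_1, tg_1423_2-8_4) differed most from the rest, with a median SD of 0.427 to 0.465 to the remaining arrays, where the other 17 had 0.28 to 0.389, and results that rest on these livers are also given without them. The labels do not state that every array came from a separate mouse, so all p-values measure the spread between these arrays.

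Chemokines are small secreted proteins that guide leukocytes along gradients through G protein-coupled receptors. CXCL9, CXCL10 and CXCL11 share the receptor CXCR3 on activated T cells and NK cells, and their genes are classical targets of interferons. CXCL1 draws neutrophils through CXCR2, CXCL12 retains leukocytes and stem cells through CXCR4, and the CC chemokines act mainly on monocytes, macrophages and T cells through receptors such as CCR1 and CCR2. In liver they are made by hepatocytes, Kupffer cells, which are the resident macrophages, sinusoidal endothelial cells and stellate cells.

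The genes lie in clusters. In the RefSeq order of the mouse genome (GRCm38.p6), *Cxcl10* and *Cxcl11* are direct neighbours on chromosome 5, with *Art3* as the only gene between *Cxcl9* and *Cxcl10*. *Cxcl1* is on the same chromosome with 42 genes between it and *Cxcl9*. *Ccl5*, *Ccl9*, *Ccl6* and *Ccl4* follow each other on chromosome 11 with 1, 1 and 3 genes between them, *Ccl2* is separated from *Ccl5* by 58 genes, and *Cxcl12* lies alone on chromosome 6. RefSeq lists *Cxcl11* of this assembly, which is that of C57BL/6J, as a transcribed pseudogene and the other 9 members as protein coding.

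Promoters are shown for 4 members on which the comparisons below turn, as a description of their letters. Each run holds the 250 bases before the transcription start, 5′ to 3′ on the gene's own strand, from RefSeq (GRCm38.p6). Capitals mark matches to the core of the interferon-stimulated response element (GAAANNGAA) or to the NF-kappa B consensus, searched on both strands. *Cxcl10* (chr5:92348890-92349139, minus strand) and *Cxcl9* (chr5:92328080-92328329, minus strand) are the interferon-induced genes that were higher in tg livers, *Ccl6* (chr11:83593088-83593337, minus strand) was also higher, and *Cxcl1* (chr5:90890995-90891244, plus strand) did not pass the test.
Cxcl10: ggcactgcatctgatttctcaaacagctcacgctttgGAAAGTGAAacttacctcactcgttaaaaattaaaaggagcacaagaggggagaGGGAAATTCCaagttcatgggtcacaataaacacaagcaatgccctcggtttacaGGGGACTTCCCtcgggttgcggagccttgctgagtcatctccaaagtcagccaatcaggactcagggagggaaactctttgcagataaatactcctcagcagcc
Cxcl9: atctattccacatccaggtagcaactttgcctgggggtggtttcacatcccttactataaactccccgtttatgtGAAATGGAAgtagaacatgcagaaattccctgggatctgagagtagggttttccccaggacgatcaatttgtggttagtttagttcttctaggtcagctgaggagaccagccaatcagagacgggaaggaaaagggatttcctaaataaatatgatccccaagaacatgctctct
Ccl6: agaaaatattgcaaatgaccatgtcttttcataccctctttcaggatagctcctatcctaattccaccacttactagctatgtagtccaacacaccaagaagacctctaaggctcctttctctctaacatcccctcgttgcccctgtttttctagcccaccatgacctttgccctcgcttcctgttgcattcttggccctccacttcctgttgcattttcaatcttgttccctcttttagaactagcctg
Cxcl1: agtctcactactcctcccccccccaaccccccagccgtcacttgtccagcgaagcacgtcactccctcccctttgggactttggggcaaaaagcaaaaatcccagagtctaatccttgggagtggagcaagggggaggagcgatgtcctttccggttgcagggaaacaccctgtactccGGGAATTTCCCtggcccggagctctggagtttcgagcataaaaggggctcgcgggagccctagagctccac
The *Cxcl10* window held GAAAGTGAA, 213 to 205 bases before the start, and 3 NF-kappa B matches, of which the pair at 104 to 95 and 103 to 94 bases overlaps. The *Cxcl9* window held GAAATGGAA, 175 to 167 bases before the start. *Cxcl1* held an overlapping pair of NF-kappa B matches at 71 to 62 and 70 to 61 bases, *Ccl9* held a single match at 35 to 26 bases, and no match was found in these windows of *Ccl6* and *Cxcl12*. The core of the gamma-activated site (TTCNNNGAA), matched in none of the 6 windows. Of 32851 promoters of the same length, 7.13% held the interferon-stimulated response element core, 7.02% the gamma-activated site core and 7.25% the NF-kappa B consensus. The windows of *Cxcl11*, *Ccl2*, *Ccl4* and *Ccl5* were not analysed here.

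Within the chemokines, *Cxcl10*, *Cxcl9*, *Ccl6* and *Ccl5* were higher in *IMP2-2* tg livers and no member was lower. limma called 4 of the 10 genes higher, where 2.98% of all genes were called higher, and 0 of the 10 lower, where 0.967% of all genes were. At an unadjusted p under 0.05, *Cxcl11* and *Cxcl12* were lower, and 0 members were called lower by the Wilcoxon test. By probe set, 5 of 18 were higher (1.88% of all probe sets) and 0 lower (0.663%). Of the interferon-induced group 2 of 3 were higher, and of the other group 2 of 7. The median log2 fold change was 0.74 in the interferon-induced group and -0.08 in the other group, beside -0.022 over all genes, of which 42.8% lay above 0.

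**Figure D1:**
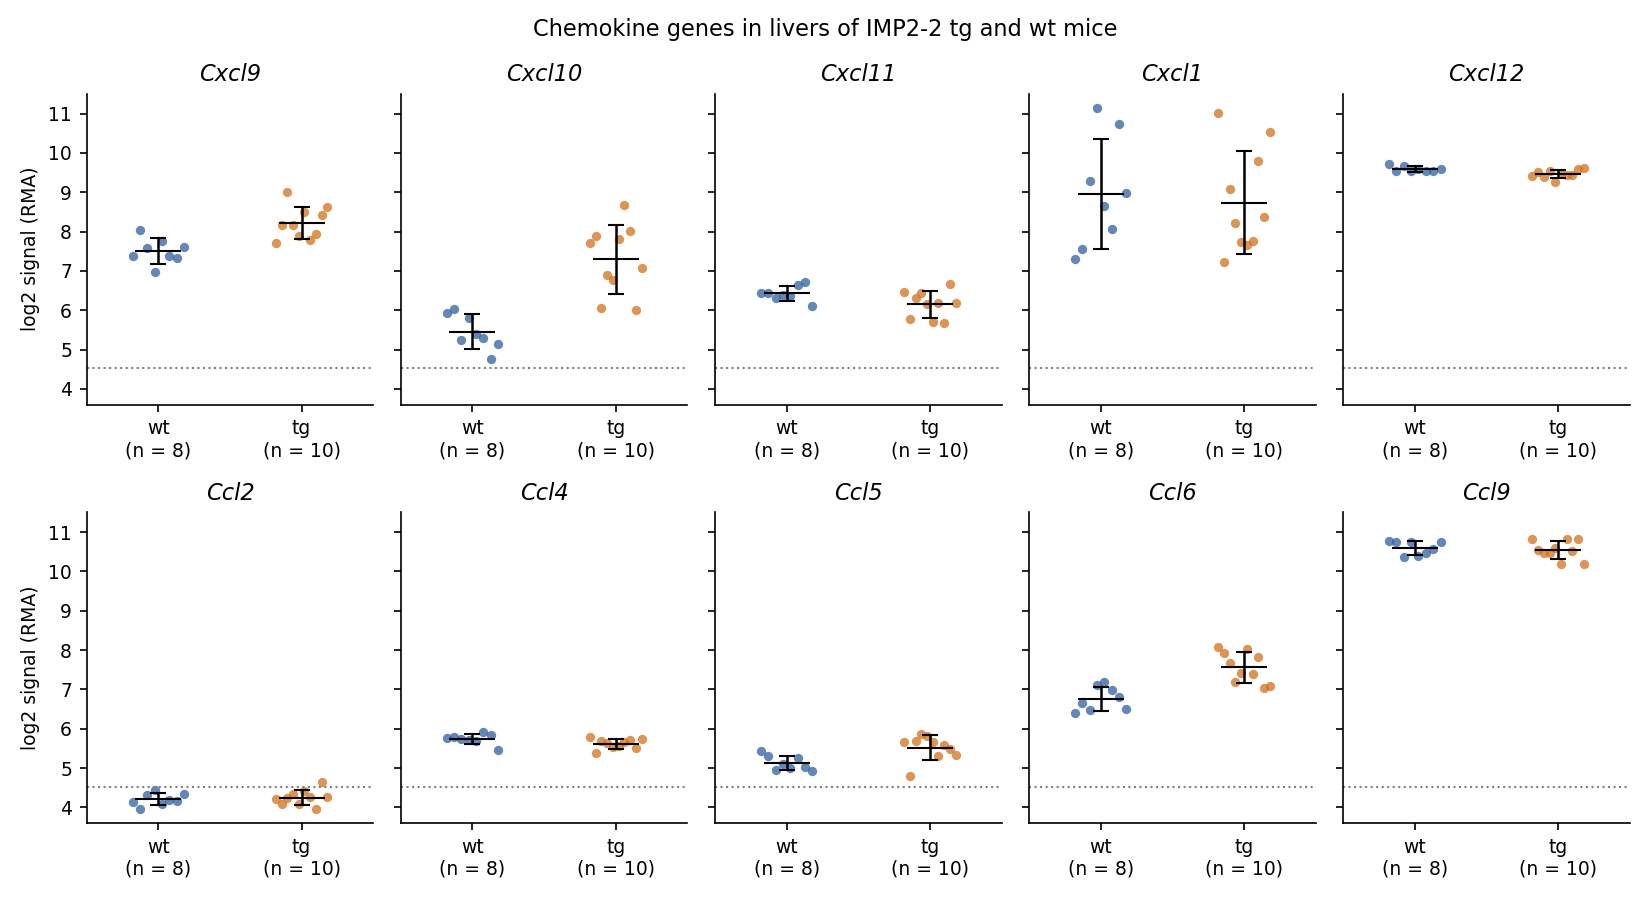
Log2 signal (y axis) of the probe set that stands for each of the 10 chemokine genes in wt (blue, n = 8 profiles) and tg (orange, n = 10) livers. Each point is a liver profile, the long bar is the mean, the short bars mark 1 SD on either side, and the dotted line is the median of all probe set means (4.53); *Cxcl10* shows the widest gap between genotypes and *Cxcl1* the widest spread within them.

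*Cxcl10*, which encodes the CXCR3 ligand IP-10, had the largest difference of the members. Its signal was 6.01 at the lowest, 7.39 at the median and 8.68 at the highest in tg livers, and 4.75, 5.35 and 6.04 in wt livers. Of the 10 tg livers 9 lay above every wt array, and tg_14231_6 lay just below the highest wt array. The lowest tg values came from tg_14231_6 and tg_1386_9 (6.06), and the highest from tg_1420_4. The means were 7.29 ± 0.88 (SD, n = 10) and 5.46 ± 0.44 (SD, n = 8), and limma gave a log2 fold change of 1.87 (3.67-fold, SE 0.281, 95% interval 1.29 to 2.46, adjusted p = 0.00115). An exact two-sided permutation test over the 43758 divisions of the 18 profiles gave p = 0.000206 without adjustment. In whole liver RNA, a change in the number of cells that express a gene and a change of RNA per cell cannot be told apart.

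*Cxcl9*, which encodes the CXCR3 ligand MIG, moved in the same direction by a smaller step. It ranged from 7.71 over a median of 8.16 to 9.0 in tg livers and from 6.98 over 7.47 to 8.05 in wt livers. All 10 tg livers lay above the wt median and 6 above every wt array. The limma log2 fold change was 0.74 (1.67-fold, SE 0.148, interval 0.43 to 1.05, adjusted p = 0.013), and the exact permutation test gave p = 0.00105. A second probe set had means of 5.27 ± 0.40 and 4.89 ± 0.23, a log2 fold change of 0.37 (SE 0.134), and did not pass (adjusted p = 0.127). The call for *Cxcl9* was lost when the near-identical wt arrays were averaged (adjusted p = 0.052), when the tg_1423_2-8 and wt_1423_2-8 arrays were left out (log2 fold change 0.64, adjusted p = 0.127) and without the 3 tg livers that stood apart (0.60, adjusted p = 0.0734).

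ITAC, the protein of an intact *Cxcl11* gene, also binds CXCR3, but RefSeq lists the C57BL/6J gene as a transcribed pseudogene. Which allele these mice carried was not checked. *Cxcl11* did not follow its neighbours. Its tg values were 5.68, 6.18 and 6.67 at the lowest, median and highest, against 6.10, 6.41 and 6.73 in wt livers. No tg liver lay above all wt arrays and 3 lay below all of them. The log2 fold change was -0.27 (SE 0.115, interval -0.51 to -0.03) with an adjusted p of 0.186 and did not pass the test. The second probe set gave -0.11 (SE 0.0608, adjusted p = 0.322) at a mean of 2.97, well below the mark for low signal.

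The 3 neighbouring genes were also set against each other liver by liver. This restates the values above and is no separate support for them. The log2 difference *Cxcl9* minus *Cxcl11* was 1.39 to 2.84 in tg and 0.73 to 1.32 in wt livers, without overlap. *Cxcl10* minus *Cxcl11* ran from -0.25 to 2.52 in tg and from -1.89 to -0.32 in wt livers, again without overlap, and its mean was 2.11 higher in tg. *Cxcl10* minus *Cxcl9* was higher in tg livers by 1.13 on average, with ranges of -1.88 to -0.32 and -2.61 to -1.58 that overlapped. These differences were chosen after the values of the genes were seen, so no test is given. The share of other gene pairs without overlap was not computed.

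**Figure D2:**
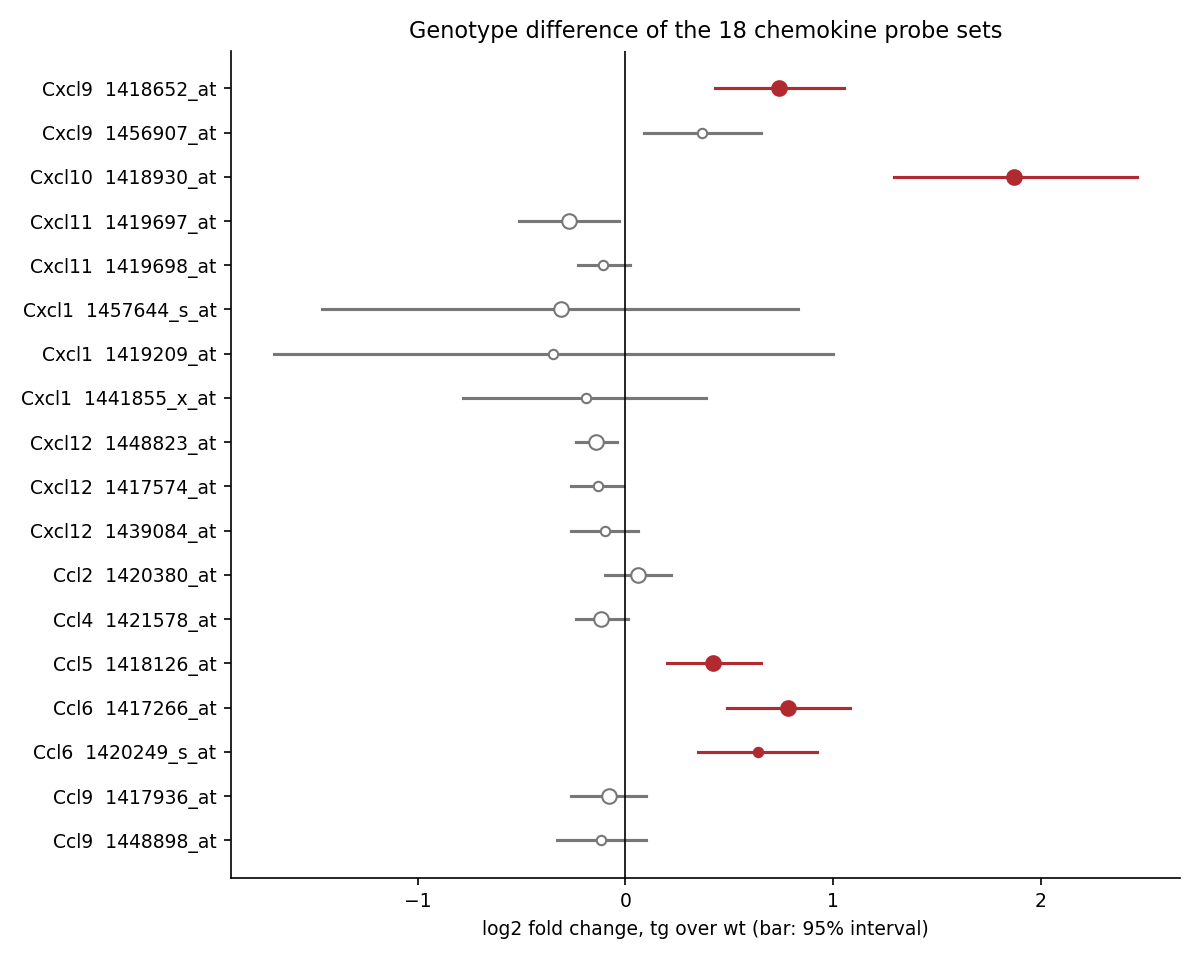
Log2 fold change, tg over wt (x axis), with its 95% interval from limma for each of the 18 probe sets (y axis, gene and probe set). Large symbols stand for the gene, small symbols are its further probe sets, and filled red symbols have an adjusted p under 0.05: these are *Cxcl10* at 1.87, *Cxcl9* at 0.74, *Ccl5* at 0.42 and both probe sets of *Ccl6* at 0.78 and 0.64.

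The 2 remaining CXC chemokines were not called. *Cxcl1*, the mouse neutrophil attractant KC, spread over several log2 units in both genotypes, from 7.23 to 11.01 (median 8.30) in tg and from 7.30 to 11.15 (median 8.83) in wt livers. The ranges overlapped almost fully. Its log2 fold change was -0.31 (SE 0.553, adjusted p = 0.788), and the interval of -1.46 to 0.83 leaves room for a sizeable difference in either direction. The further *Cxcl1* probe sets gave -0.35 (adjusted p = 0.801) and -0.19 (adjusted p = 0.734). Both tg_1423_2-8 arrays (10.53 and 11.01) and wt_1423_2-8_9 (11.15) were among the high livers, together with wt_1407_5 and wt_1420_7 (10.71 and 10.74), which form a near-identical pair.

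*Cxcl12*, which encodes the CXCR4 ligand SDF-1, varied least. It lay between 9.27 and 9.62 (median 9.48) in tg and between 9.53 and 9.73 (median 9.56) in wt livers. Of the 10 tg livers 7 lay below every wt array, yet the step was small, at -0.14 on the log2 scale (SE 0.0476, interval -0.24 to -0.04, adjusted p = 0.109). The further probe sets gave -0.13 (adjusted p = 0.219) and -0.10 (adjusted p = 0.494). After a renewed quantile normalization *Cxcl12* passed (-0.18, adjusted p = 0.0434), and it did not in any other alternative run for it.

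Among the CC chemokines *Ccl6*, a CCR1 ligand of myeloid cells, differed most. It ranged from 7.03 over a median of 7.54 to 8.09 in tg livers and from 6.4 over 6.73 to 7.20 in wt livers. The groups overlapped only at their edges, with 7 of 10 tg livers above every wt array. limma gave a log2 fold change of 0.78 (1.72-fold, SE 0.143, interval 0.49 to 1.08, adjusted p = 0.00726), and the exact permutation test gave p = 0.000548. This call was lost without the tg_1423_2-8 and wt_1423_2-8 arrays (0.69, adjusted p = 0.105) and without the 3 tg livers that stood apart (0.75, adjusted p = 0.0514). The second probe set of *Ccl6* passed in the main limma fit as well (0.64, SE 0.137, adjusted p = 0.0185). It did not pass with near-identical wt arrays averaged (adjusted p = 0.0604), by the Wilcoxon test (0.0642) or without the tg_1423_2-8 and wt_1423_2-8 arrays (0.168).

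*Ccl5*, which encodes RANTES, a ligand of CCR1 and CCR3 made by T cells, NK cells and other cells, showed the smallest step that passed. Its tg values were 4.79, 5.63 and 5.86 at the lowest, median and highest, and its wt values 4.93, 5.06 and 5.43. The tg livers were on both sides of the wt range, with 7 above every wt array and tg_14231_6 below every wt array. The log2 fold change was 0.42 (1.34-fold, SE 0.109, interval 0.20 to 0.65, adjusted p = 0.0422, limma), and the exact permutation test gave p = 0.00802. This call was fragile. It held in only 6 of 20 fits that left out a single array, namely tg_1386_9, tg_1407_9, tg_1420_12, tg_14231_6, wt_1371_4 or wt_1386_4, and leaving out any other array raised the adjusted p to as much as 0.0823. It was also lost with near-identical arrays averaged (0.107) and without the tg_1423_2-8 and wt_1423_2-8 arrays (0.219).

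*Ccl9*, the closest chemokine neighbour of *Ccl6* and likewise a CCR1 ligand, lay well above the mark for low signal in every liver, with 10.18 to 10.82 in tg and 10.37 to 10.78 in wt livers. Its log2 fold change was -0.08 (SE 0.0873, interval -0.26 to 0.10, adjusted p = 0.623), and its second probe set gave -0.12 (adjusted p = 0.564). *Ccl4*, which encodes MIP-1 beta, had means of 5.62 ± 0.13 in tg and 5.74 ± 0.14 in wt livers (log2 fold change -0.12, SE 0.0606, interval -0.24 to 0.01, adjusted p = 0.272). *Ccl2*, the monocyte attractant MCP-1 that signals through CCR2, lay at 4.25 ± 0.19 and 4.21 ± 0.15, below the mark for low signal (log2 fold change 0.06, SE 0.0769, interval -0.10 to 0.22, adjusted p = 0.719). None of these 3 passed the test.

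The array names carry 6 numbers that occur in both genotypes, and the genotype difference was also taken within each number. Single arrays were used for this, without averaging. In each near-identical wt pair the arrays carry different numbers, so the 6 differences do not all rest on separate wt profiles. *Cxcl10* was higher in tg livers within 6 of 6 numbers, but by 0.02 between tg_1386_9 and wt_1386_4 and by 2.97 between the tg_1423_2-8 and wt_1423_2-8 arrays. *Cxcl9* (0.08 to 1.15) and *Ccl6* (0.07 to 1.16) were likewise higher within 6 of 6, with their smallest steps between tg_1386_9 and wt_1386_4 for *Cxcl9* and between tg_1371_2 and wt_1371_4 for *Ccl6*. The second probe set of *Ccl6* was higher in only 4 of 6 numbers (-0.18 to 1.26), and that of *Cxcl9* in 6 of 6 (0.11 to 0.54). *Ccl5* was higher in 5 of 6 numbers (-0.22 to 0.67), *Cxcl11* in 0 of 6 (-0.63 to -0.05, and in 1 of 6 by its second probe set) and *Cxcl1* in 3 of 6 (-1.63 to 0.93). *Cxcl10*, *Cxcl9*, *Ccl6* and *Ccl5* each had their largest step between the tg_1423_2-8 and wt_1423_2-8 arrays. The sources used here do not say what the numbers stand for.

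**Figure D3:**
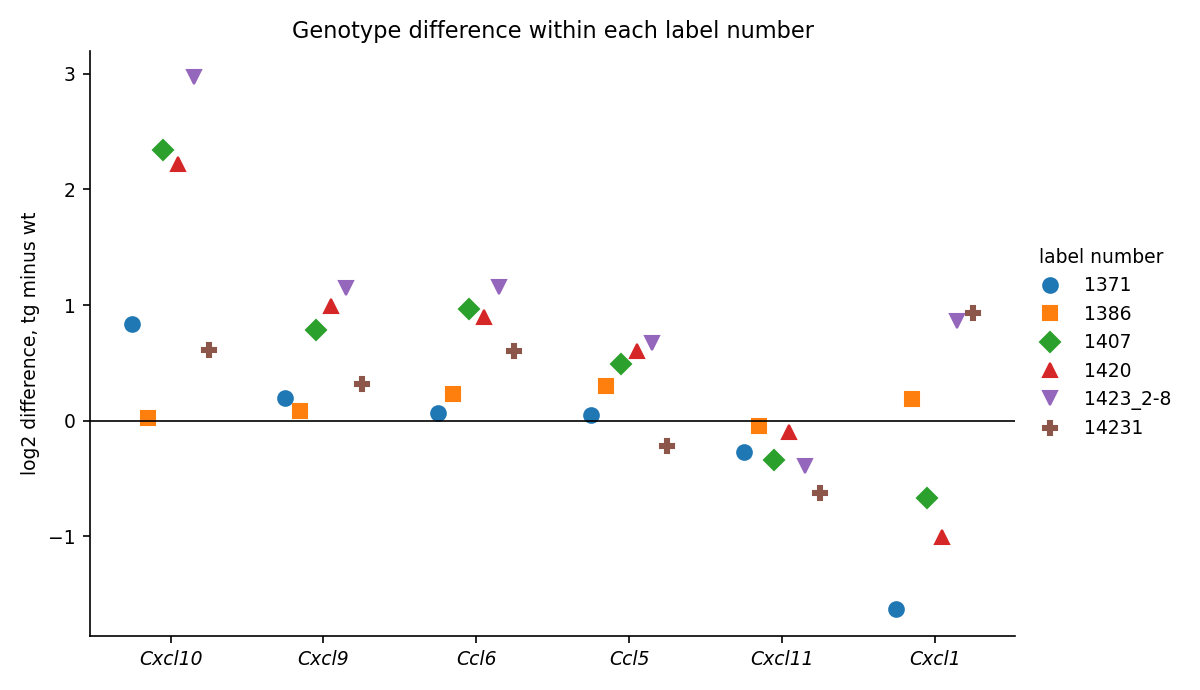
Log2 difference of the tg mean minus the wt mean (y axis) within each of the 6 label numbers (symbols) for the probe sets that stand for 6 chemokine genes (x axis). *Cxcl10*, *Cxcl9* and *Ccl6* lie above 0 for every number, *Cxcl11* lies below 0 for every number, and *Cxcl1* scatters from -1.63 to 0.93. Near-identical wt arrays were not averaged and carry different numbers, so the symbols do not all rest on separate wt profiles.

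*Cxcl9*, *Cxcl10*, *Ccl6*, *Ccl5* and *Ccl2* took part in pairs that varied together from liver to liver. After the genotype means were removed, 4 of the 45 gene pairs passed a permutation test of Pearson r within genotype over the 18 profiles, with Benjamini-Hochberg adjustment over the 45, and every such pair held *Cxcl9* or *Cxcl10*. The test treats livers of a genotype as independent and takes no account of the number in the array names, although arrays that share a number correlated across genotypes at 0.184 to 0.404, and no share of passing pairs over all genes was computed. *Cxcl9* and *Cxcl10* were the closest pair (r = 0.82, permutation p = 0.0001, adjusted p = 0.0045, Spearman rho = 0.80, permutation p = 0.00041, adjusted p = 0.0126), with r = 0.78 after the 2 livers farthest from the median were left out. *Cxcl9* and *Ccl6* followed (r = 0.72, permutation p = 0.00172, adjusted p = 0.036, rho = 0.78, permutation p = 0.00079, adjusted p = 0.0126, r = 0.79 without the 2 farthest livers). *Cxcl10* and *Ccl5* gave r = 0.70 (permutation p = 0.00296, adjusted p = 0.036, rho = 0.76, permutation p = 0.00084, adjusted p = 0.0126) and 0.62 without the 2 farthest livers. *Cxcl9* and *Ccl2* gave r = 0.67 (permutation p = 0.0032, adjusted p = 0.036, rho = 0.57, permutation p = 0.0199, adjusted p of rho = 0.149), and this relation rested on tg_1420_4 and wt_1420_1, since r was 0.39 without them. *Cxcl10* and its direct neighbour *Cxcl11* had r = 0.19 (permutation p = 0.523, adjusted p = 0.735, rho = 0.11, permutation p = 0.709). *Cxcl11*, *Cxcl1*, *Cxcl12*, *Ccl4* and *Ccl9* passed with no other member.

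**Figure D4:**
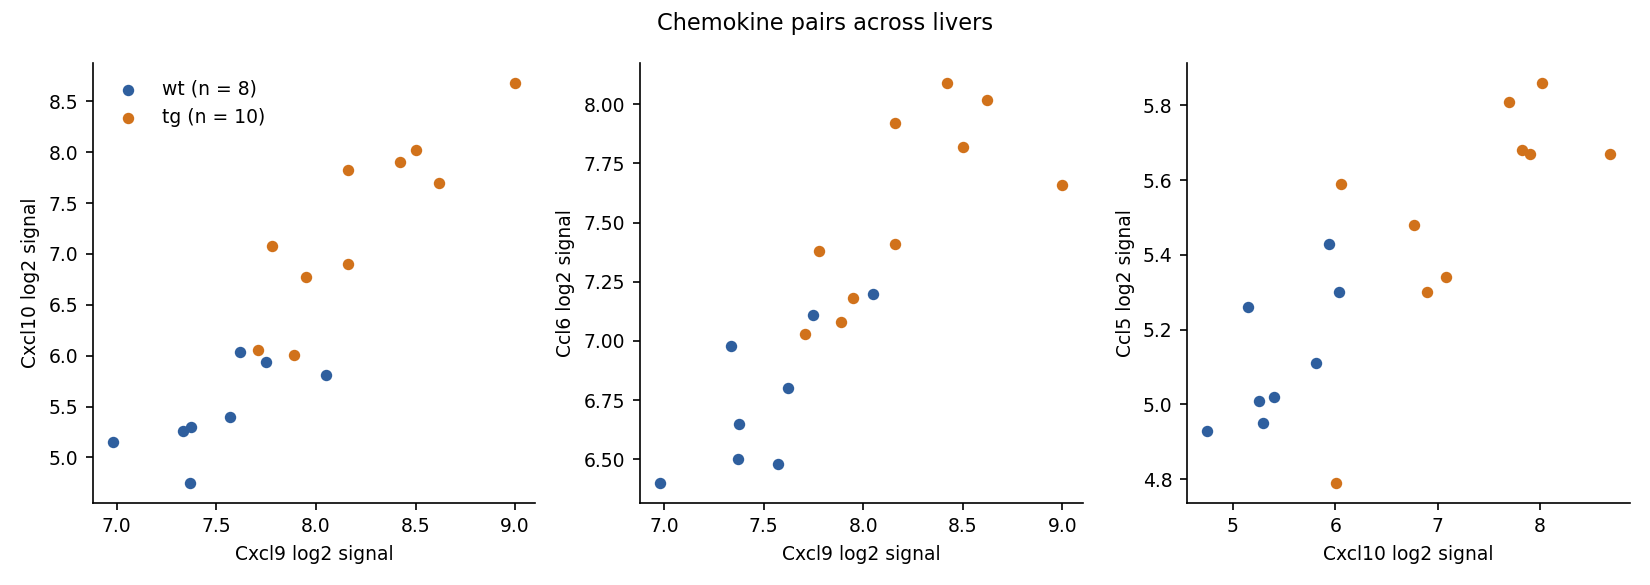
Log2 signals of chemokine pairs in wt (blue, n = 8) and tg (orange, n = 10) liver profiles: *Cxcl10* against *Cxcl9*, *Ccl6* against *Cxcl9*, and *Ccl5* against *Cxcl10*. Each point is a liver profile, and with genotype means removed r was 0.82, 0.72 and 0.70.

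The genes most like each interferon-induced chemokine were ranked by Pearson r over the 20 arrays, again without genotype means, among 11759 genes at or above the mark for low signal. *Cxcl10* ran closest to *Ifit3* (0.95), *Rsad2* (0.94), *Tap1* (0.91), *Ifit1* (0.90) and *Eif2ak2* (0.90), which are known as interferon-induced antiviral and antigen processing genes. *Cxcl9* ran closest to *Cwc27* (0.84), *Irgm2* (0.84), *Slc15a3* (0.83), *Ifit3* (0.83) and *Themis2* (0.83). *Cxcl11* had a list of its own, with *Ssbp1* (0.82), *Parp2* (0.78), *Rac2* (0.76), *Zfp62* (0.75) and *Hus1* (0.74). These values describe these arrays, in which near-identical wt arrays are counted separately.

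The receptors of the members gave little signal (levels of receptors, pathway genes and markers are over all 20 arrays). Of the 7 receptors analysed, 2 lay above the mark for low signal. *Cxcr3*, the shared receptor of the interferon-induced group, had mean levels of 4.36 in tg and 4.48 in wt livers (log2 fold change -0.12, adjusted p = 0.198). *Cxcr2* (4.68 and 4.76) and *Ccr2* (5.37 and 5.39) were the ones above the mark, and *Cxcr4*, *Ackr3*, *Ccr1* and *Ccr3* lay at 2.56 to 3.79 in tg livers. limma called 0 of the 7, with 1 at an unadjusted p under 0.05 (*Cxcr3*), and the Wilcoxon test called 0. Of 13 other chemokine receptors, *Ccr9*, the gut homing receptor, was lower (3.77 in tg, 3.94 in wt, log2 fold change -0.17, SE 0.0397, adjusted p = 0.0283), at a level below the mark. That call was lost after renewed quantile normalization and after centring of the arrays on their medians, with near-identical arrays averaged (0.0665), without the tg_1423_2-8 and wt_1423_2-8 arrays (0.105), without the 3 tg livers that stood apart, and when tg_1407_3, tg_1423_2-8_1, wt_1407_5 or wt_14231_2 alone was left out.

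Of 25 further chemokines 24 were measured, and limma called 0 of them, with 3 higher and 2 lower at an unadjusted p under 0.05 and a median log2 fold change of -0.01. The platelet chemokines *Pf4* (0.47, adjusted p = 0.0692) and *Ppbp* (0.79, adjusted p = 0.19) had the largest values. The Wilcoxon test called 1, *Pf4* (adjusted p = 0.0423). *Cxcl2*, *Ccl3* and *Ccl7*, which lie in the same gene clusters as the members, were at 3.41, 3.69 and 3.06 in tg livers, all below the mark.

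Of the genes of interferon signalling, 4 of 14 measured were higher and 0 lower, with a median of 0.10. Of all genes, 2.98% were called higher and 0.967% lower. *Irf7*, which amplifies type I interferon responses, was higher by 1.56 (SE 0.178, adjusted p = 0.000276), *Stat2* by 0.62 (adjusted p = 0.0112) and *Irf9* by 0.61 (adjusted p = 0.00581), the last 2 being parts of the complex that binds the interferon-stimulated response element. *Ifngr1*, a chain of the interferon gamma receptor, was higher by 0.60 (adjusted p = 0.0206). The ligand genes themselves gave low signal, with *Ifng* at 2.77 in both genotypes and *Ifnb1* at 3.97 and 4.01. *Irf1*, a factor induced strongly by interferon gamma, differed by 0.08 (adjusted p = 0.762). With near-identical wt arrays averaged *Ifngr1* was lost (adjusted p = 0.0696), which left 3 calls. Without the tg_1423_2-8 and wt_1423_2-8 arrays only *Irf7* passed (adjusted p = 0.0207), and without the 3 tg livers that stood apart the count was 2.

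Of 15 measured NF-kappa B and inflammatory cytokine genes limma called 0, with 5 higher and 0 lower at an unadjusted p under 0.05, a median of 0.10 and 0 calls by the Wilcoxon test. *Lcn2*, an acute phase gene, had the largest value (1.61, SE 0.546, adjusted p = 0.103), followed by *Icam1* (0.52, adjusted p = 0.122) and *Tnfaip3* (0.38, adjusted p = 0.0731). *Tnfaip3* passed with the label number as a fixed replicate block (adjusted p = 0.0368), while 0 genes of the list passed with that number as a random block. The list also had 1 higher call without tg_1386_9 and wt_1386_4. With single arrays left out it had 1 without tg_1371_2, 1 without tg_1386_9 and 2 without tg_14231_6. *Tnf* (3.59 and 3.63) and *Il6* (2.78 and 2.63) lay below the mark.

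**Figure D5:**
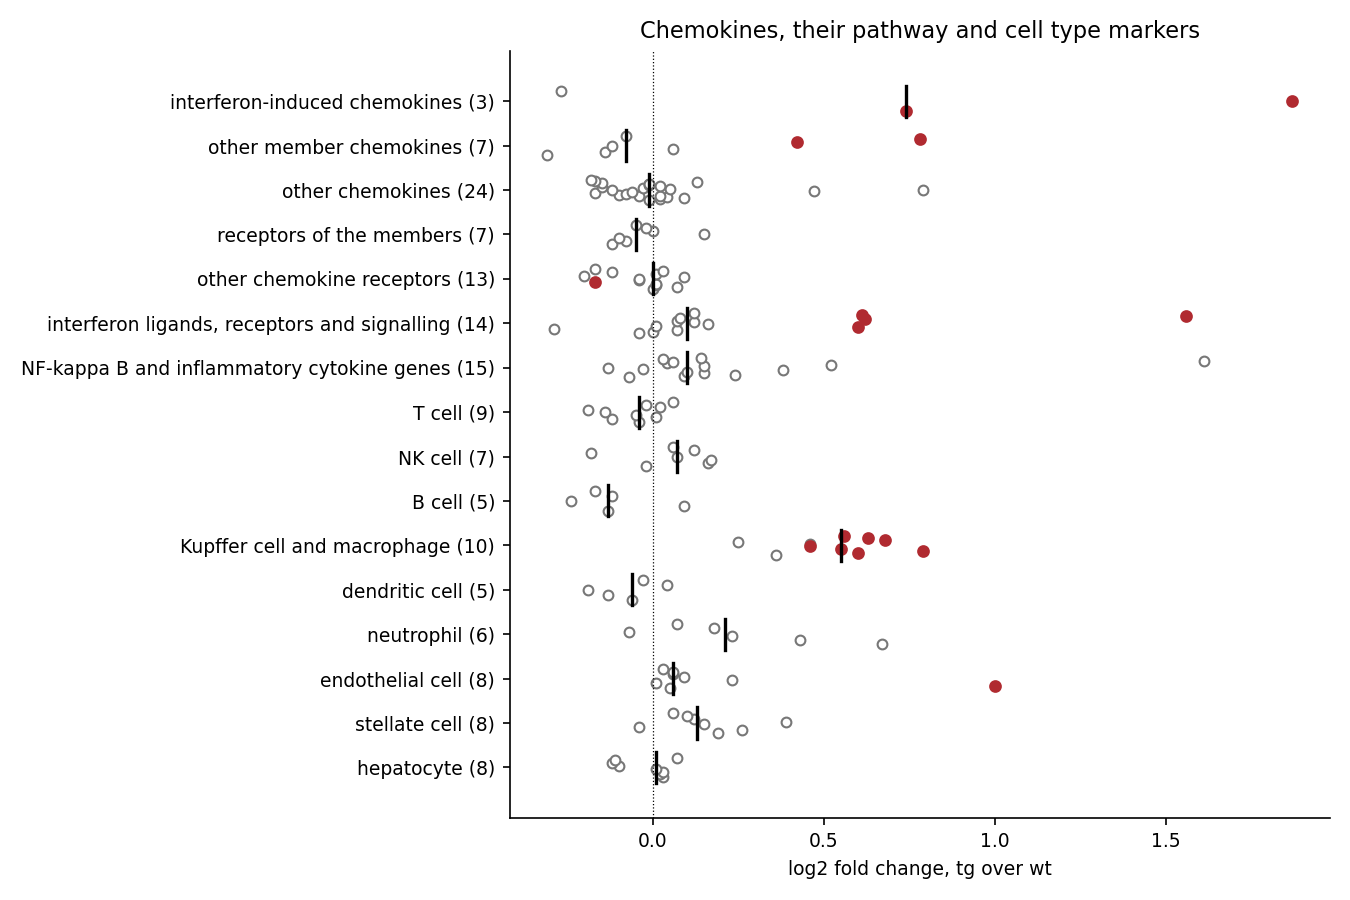
Log2 fold change, tg over wt (x axis), of every measured gene in the chemokine groups, their receptors and pathways, and cell type marker lists (y axis, number of measured genes in parentheses). Each circle is a gene, filled red where the limma adjusted p was under 0.05, and the vertical bar is the median of the list, which was 0.74 for interferon-induced chemokines and 0.55 for Kupffer cell and macrophage markers.

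Markers of Kupffer cells and macrophages moved with genotype as well. limma called 7 of 10 higher, where 2.98% of all genes were, and 0 lower, where 0.967% of all genes were. The median log2 fold change was 0.55, and the mean level of the list was 7.78 to 8.57 in tg and 7.44 to 8.09 in wt arrays. *Cd5l* was higher by 0.79 (adjusted p = 0.0106), *Cd68* by 0.68 (0.0144), *C1qa* by 0.63 (0.012), *Clec4f* by 0.60 (0.00924), *C1qb* by 0.56 (0.0134) and *Vsig4* by 0.55 (0.027). The count was 9 with the replicate block, 5 with near-identical wt arrays averaged (*Vsig4* and *Marco* were lost, at 0.0685 and 0.0744), 4 by the Wilcoxon test, and 0 without the tg_1423_2-8 and wt_1423_2-8 arrays or without the 3 tg livers that stood apart. Of all probe sets, 850 were higher in the main fit, 1634 with the fixed replicate block, 245 with that averaging and 677 by the Wilcoxon test. The number was 69 without the tg_1423_2-8 and wt_1423_2-8 arrays and 158 without the 3 tg livers. The part of Kupffer cells and macrophages in the values of *Ccl6*, *Cxcl9*, *Cxcl10* and *Ccl5* was not tested.

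Markers of the cells that carry CXCR3 did not pass. Of T cell markers limma called 0 of 9 (1 lower at an unadjusted p under 0.05, 0 by the Wilcoxon test), with mean levels of 3.75 to 3.99 in tg and 3.87 to 3.98 in wt arrays. *Cd3e* (5.54 in tg and 5.66 in wt arrays) and *Cd4* (5.09 and 5.23) were the only 2 of the 9 above the mark, and *Cd3d* (4.19 and 4.23) and *Cd3g* (3.19 and 3.18) lay below it. *Cd8a* differed by -0.19 on the log2 scale (adjusted p = 0.0601 and, with the replicate block, 0.0452). Of NK cell markers limma called 0 of 7, with levels of 3.74 to 4.20 and 3.79 to 4.0, while *Prf1* (-0.18, adjusted p = 0.0737) was lower by the Wilcoxon test (0.0423) and with the fixed replicate block (0.0487), while 0 markers passed with the random block. B cell (5 measured), dendritic cell (5), neutrophil (6), stellate cell (8) and hepatocyte (8) markers gave 0 calls by limma and by the Wilcoxon test, with 2, 2, 0, 3 and 1 genes at an unadjusted p under 0.05. The B cell marker *Ms4a1* was lower with the replicate block (adjusted p = 0.0286, against 0.0511 without it). Of 8 endothelial markers *Lyve1* was higher (1.0, adjusted p = 0.0214). It did not pass without the tg_1423_2-8 and wt_1423_2-8 arrays (0.153) or without the 3 tg livers that stood apart.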

How the data were processed

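Total liver RNA was hybridised to Affymetrix arrays, 10 of tg and 10 of wt mice. The authors normalized the scans by RMA, and the deposited log2 values of 45101 probe sets were used unchanged, and the sources used here do not give the program version. The supplied platform annotation gave 34958 probe sets 1 symbol, 932 several and 9211 none, which leaves 18194 genes, and the 10 members were all found in the RefSeq table. Where a gene had several probe sets, the brightest by its mean across the arrays stood for it.

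R 4.3.3 with limma 3.58.1 fitted genotype as the only term, with empirical Bayes moderation and Benjamini-Hochberg adjustment over all probe sets at a threshold of 0.05. Intervals are 95% intervals of the moderated fit. Exact tests, 100000-draw permutation tests of gene pairs, motif searches and figures used Python 3.11.15 with numpy 2.4.6, scipy 1.17.1, pandas 2.3.3 and matplotlib 3.10.9. The limma functions were tested on simulated data with 200 changed probe sets. Arrays whose log2 difference had an SD under 0.2 within wt were treated as near-identical. The number of arrays limits the precision.

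The members and the gene and marker lists were chosen with earlier results of these data known, and no list was given a test of its own. Named were all members with every probe set, their receptors, up to 6 called genes of each further list by size of change, and the 5 genes most like each interferon-induced chemokine. Other genes named were chosen after their values were seen.

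Numbers shared by array names of both genotypes were checked as pairs: after removal of the genotype means, arrays sharing a number correlated across genotypes at 0.184 to 0.404, and for 5 of 6 numbers no other number correlated better. Alternatives were the number as a fixed or random replicate block (consensus correlation 0.082), renewed quantile normalization, median centring, a filter on low probe sets, trend and robust moderation, the *Xist* signal as a covariate, array weights, other probe set choices, a Wilcoxon test, averaged near-identical arrays and arrays left out. Human tissue, diet, cell culture and PCR experiments of the study were not analysed here.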

Additional observations from a re-analysis of the deposited data

Results flagged for a closer look

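In 20 groups of chemokine values, 10 genes in each genotype, 2 livers stood apart from the others of their group by more than Dixon's 95% limit, and chance alone gives about 1 in 20 groups. *Ccl4* in wt_1371_4 was 5.45, with the next wt profile at 5.70 (gap over range 0.537). *Ccl5* in tg_14231_6 was 4.79, with the next tg liver at 5.30 (gap over range 0.479), and this liver also had the lowest *Cxcl10* value of the tg group. Its *Cxcl11* value was the lowest of the tg group by the probe set that stands for the gene (5.68, against 5.69 in tg_1407_9). By the second *Cxcl11* probe set it was the highest (3.13).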

How the results depend on the processing

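*Cxcl10* passed in every alternative run, at adjusted p values of 0.000186 to 0.00348 with single arrays left out and 0.000251 to 0.0439 otherwise. The label number as a fixed replicate block left the calls of all members as they were (*Cxcl10* 0.00297, *Ccl6* 0.00387, *Cxcl9* 0.0117, *Ccl5* 0.0237), with 2 interferon-induced and 2 other genes higher. The interferon-induced count fell from 2 to 1 with near-identical wt arrays averaged, without the tg_1423_2-8 and wt_1423_2-8 arrays, and without the 3 tg livers that stood apart. The count of other members fell from 2 to 1 with array weights, the Wilcoxon test, near-identical arrays averaged, and that averaging without tg_1386_9 and wt_1386_4, and to 0 without the tg_1423_2-8 and wt_1423_2-8 arrays or without those 3 tg livers. With single arrays left out it was 1 to 2, *Ccl5* being the gene lost (adjusted p 0.00237 to 0.0823), while the interferon-induced count stayed 2 and the lower count 0. Without tg_1386_9 and wt_1386_4 the log2 fold change was 2.08 for *Cxcl10* (adjusted p = 0.000251) and 0.81 for *Cxcl9* (0.00697). It was 0.85 for *Ccl6* (0.00405) and 0.44 for *Ccl5* (0.0436) in the same limma fit. Renewed quantile normalization made 1 member lower, *Cxcl12*. *Ccl9* turned from -0.08 to 0.02 (adjusted p = 0.948) without the tg_1423_2-8 and wt_1423_2-8 arrays. Causes were not tested. Over all probe sets, 850 were higher and 299 lower, against 682 and 476 after renewed quantile normalization, 969 and 156 with arrays centred on their medians, 1634 and 607 with the replicate block, 245 and 31 with near-identical arrays averaged, and 69 and 5 without the tg_1423_2-8 and wt_1423_2-8 arrays. The last 2 fits have fewer arrays. Leaving out single arrays moved these counts from 391 and 72 (without tg_1420_4) to 1684 and 776 (without tg_1386_9), so the shares of all probe sets given beside the members' calls move as well. The settings without the 3 tg livers (tg_1420_4 and both tg_1423_2-8 arrays) and with averaging plus tg_1386_9 and wt_1386_4 left out were chosen after seeing the data. *Ccl2*, most receptors and lymphocyte markers lay near low signal, where arrays resolve little.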

Other observations

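The genes most like *Ccl6* and *Cxcl1* were ranked in the same way after their values were seen. *Ccl6* ran closest to *Adgre4* (r = 0.89 over 20 arrays), *Fabp7* (0.88), *C1qb* (0.88), *Rac2* (0.87) and *Cd48* (0.87), of which *Adgre4* and *C1qb* are known macrophage genes. *C1qb* is also on the Kupffer cell list above, and *Rac2* was among the genes most like *Cxcl11* too. *Cxcl1* ran closest to *Akap17b* (0.94), *Rnf24* (0.93), *Romo1* (0.93), *Eaf1* (0.92) and *Ywhag* (0.92). None of these 5 is a chemokine or a gene of the NF-kappa B list. *Ccl5* ran closest to *Elmo1* (0.80), a regulator of Rac signalling in cell migration.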
